A study of Mus musculus with 4 samples.

Results

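Potassium channel genes were followed in the mouse dentate gyrus, the granule cell layer region of the hippocampus, through 2 antidepressant treatments, electroconvulsive stimulation (ECS) and the serotonin reuptake inhibitor fluoxetine. The genes were all those whose symbol begins with Kcn and that alone are annotated to a probe set with a mean deposited signal of at least 50 over the 4 arrays, each gene being read by its brightest probe set. Of 62 Kcn genes on the array, with 90 probe sets, 31 genes passed this filter, among 7935 genes that passed it in all. The mean includes the treated arrays, so a gene could pass through a high treated pool. The sham and vehicle signals alone averaged at least 50 for 28 of the 31 genes, but only 38.0 for Kcne1l, 42.75 for Kcnj6 and 49.6 for Kcnj8. The filter cut between Kcnj8 and Kcnj6, with mean deposited signals of 50.2 and 53.1, on the inside and Kcnj12 and Kcnk13, with 47.7 and 40.6, on the outside.

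Potassium channels let potassium leave or enter cells along its gradient, and thereby set the resting potential, end action potentials and limit how often a neuron fires. Voltage-gated pores (Kcna, Kcnc, Kcnd, Kcnh, Kcnq, Kcns) open on depolarization and are tuned by auxiliary subunits (Kcnab, Kcne, Kcnip). Inward rectifiers (Kcnj) and tandem-pore channels (Kcnk) act near rest, and the large- and small-conductance channels (Kcnma, Kcnmb, Kcnn) open with internal calcium. Mature dentate granule cells fire sparsely and have a very negative resting potential, to which leak and inwardly rectifying channels contribute, and astrocytes use an inward rectifier to take up the potassium that active neurons release.

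All animals were C57Bl/6 mice by the labels, and the methods name males of the substrains C57BL/6J or C57BL/6N, 8 weeks of age, without saying which array held which. The ECS pool came from mice given 11 sessions of bilateral ECS through ear clips under isoflurane, and the sham pool from mice handled in the same way but given no current. The fluoxetine pool came from mice that drank fluoxetine with saccharin for 4 weeks, at a daily dose of 22 mg/kg, and were selected for a small frequency facilitation at the mossy fiber synapse (n = 3), and the vehicle pool from mice labelled as given water for the same 28 days. The labels place the ECS and sham samples 6 h after the last session, while the methods of the study state a later time. RNA of the dissected dentate gyrus was pooled within each group and hybridized to 1 array per group, so that there are no replicates, no difference was tested, and no SD or p-value can be given. In pooled tissue RNA, fewer cells of a type and less RNA per cell cannot be told apart.

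The deposited arrays lie on unequal scales, with median signals past the filter of 219 (ECS), 236 (sham), 365 (fluoxetine) and 335 (vehicle). Signals were therefore scaled to a common median, which moved every log2 ratio by 0.11 for ECS and by -0.12 for fluoxetine. The values below are scaled signals or log2 ratios of them, treated over control, and a gene is called higher or lower when the ratio is at least 1.5-fold. The single available gauge of error is the log2 ratio of the sham array to the vehicle array. It also holds differences in handling between those mice, and cannot show how pools of the same group vary. The control spread of a gene is the scaled median absolute deviation of that log2 ratio over the 500 probe sets nearest to it in signal, and it lay between 0.13 for the brightest Kcn genes and 0.41 for the dimmest. Markers of granule cells were present on each array, and Prox1, their fate determinant, had signals of 127 (ECS), 134 (sham), 139 (fluoxetine) and 130 (vehicle). The 4 measured granule cell markers were Prox1, Calb1, Dsp and Tdo2, of which Calb1, Dsp and Tdo2 were lower with each treatment. Their summed signal was 3181 in the ECS pool and 7051 in the sham pool, and 2069 in the fluoxetine pool and 7436 in the vehicle pool. The paper treats Calb1 and Tdo2 as markers of mature granule cells and reports lower Calb1, Tdo2 and Dsp after ECS. This sum is therefore not a count of granule cells. The summed signal of 6 microglia markers was 4245 (ECS), 4207 (sham), 5312 (fluoxetine) and 4120 (vehicle), with 2 higher with fluoxetine (3 on the deposited signals). That of 5 oligodendrocyte markers was 11859 (ECS), 11072 (sham), 10938 (fluoxetine) and 10647 (vehicle), and that of 5 endothelial and pericyte markers 1285 (ECS), 1322 (sham), 1202 (fluoxetine) and 1262 (vehicle), with no marker of either list called. The 2 measured pyramidal cell markers summed to 1054 (ECS), 672 (sham), 959.8 (fluoxetine) and 689 (vehicle), of which Bok had log2 ratios of 0.94 and 0.73 and Wfs1 -0.28 and -0.26. None of these markers was at 0, and the part of these differences in the results below was not tested.

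With ECS, 5 of the 31 Kcn genes were higher and 1 was lower, where 5.34% and 4.18% of all genes were. With fluoxetine, 4 were higher and 1 was lower, against 5.82% and 5.13% of all genes. Both treatments shared 3 of the higher genes, Kcne1l, Kcnip3 and Kcnj10, and the lower gene, Kcnk2, where 3.04% of all genes were higher with both and 1.88% lower with both. The remaining calls were Kcnip1 and Kcnj6, higher with ECS, and Kcnh2, higher with fluoxetine, and 24 genes were under 1.5-fold in both comparisons. The sham and vehicle pools themselves were at least 1.5-fold apart for 1 Kcn gene, Kcnq5, and for 3.2% of all genes. Kcne1l had both deposited control signals below 50 and passed the filter through its treated pools, so a difference in it was built into the choice. With the filter set on the mean of the sham and vehicle signals instead, an alternative chosen after seeing the data, 28 Kcn genes were left without Kcne1l and Kcnj6. Then 3 were higher and 1 lower with ECS, against 4.48% and 4.62% of all genes, and 3 were higher and 1 lower with fluoxetine, against 4.83% and 5.52%. With counts this small, the share of higher Kcn genes is above the background by a few genes only, and the share of lower ones is near it. On the signals as deposited the counts with ECS were again 5 and 1, against 3.84% and 6.47% of all genes, and those with fluoxetine were 5 and 1, against 8.49% and 3.26%.

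**Figure D1:**
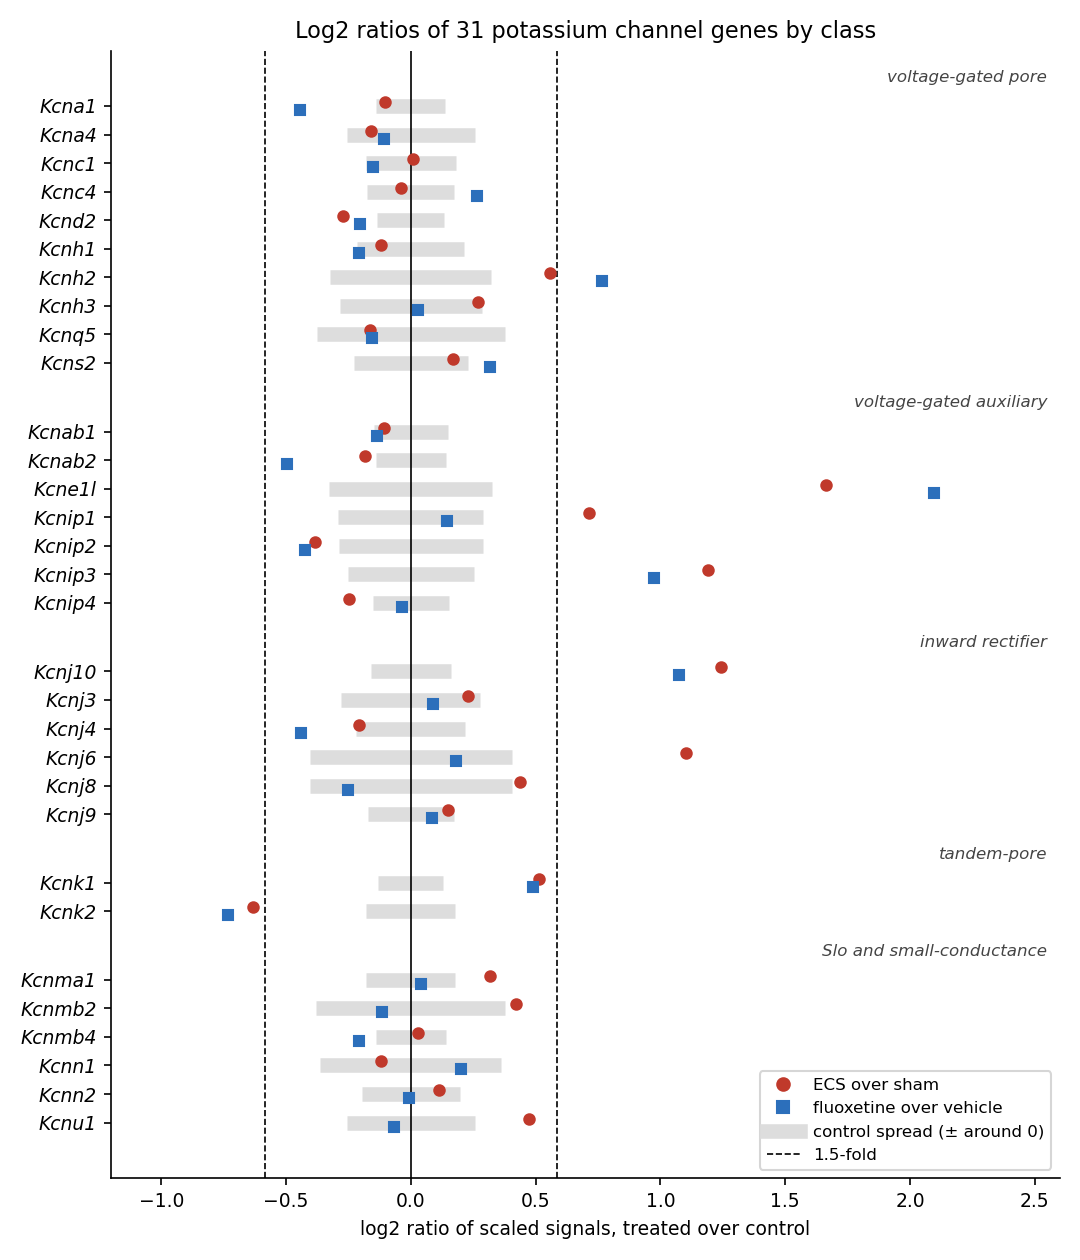
Log2 ratios of scaled signals (horizontal axis) for the 31 potassium channel genes (rows) by class, ECS over sham as red circles and fluoxetine over vehicle as blue squares, 1 pooled array per group. Grey bars reach 1 control spread to either side of 0 and dashed lines mark 1.5-fold. Kcne1l, Kcnip3 and Kcnj10 lie right of the line in both comparisons and Kcnk2 lies left of it.

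Both treated pools stood above both control pools in 9 Kcn genes (29.0%, against 24.4% of all genes) and below both in 8 (25.8%, against 23.1%). The 9 include Kcne1l and Kcnj6, whose mean control signals were below 50 and which passed the filter with the help of their treated pools. A stricter reading takes the 4 ratios that can be formed between a treated and a control pool. Kcne1l, Kcnip3 and Kcnj10 were at least 1.5-fold higher in each of the 4, as were 2.24% of all genes. Kcnk2 was at least 1.5-fold lower in each, as were 1.34%. For Kcne1l this reading adds no support, since the filter had kept it through its treated pools. The promoters of Kcne1l, Kcnip3, Kcnj10 and Kcnk2 are shown because the levels of each gene moved alike under both treatments. Each is a window of 300 bases around a RefSeq transcription start, most of it before the start, on build GRCm38.p6, and is written 5′ to 3′ along the gene. Capitals mark matches on either strand to the AP-1 site TGANTCA or to the GC box GGGCGG, and where a gene has several start sites the window with the AP-1 match was taken.
Kcne1l, chrX:142306149-142306448, minus strand: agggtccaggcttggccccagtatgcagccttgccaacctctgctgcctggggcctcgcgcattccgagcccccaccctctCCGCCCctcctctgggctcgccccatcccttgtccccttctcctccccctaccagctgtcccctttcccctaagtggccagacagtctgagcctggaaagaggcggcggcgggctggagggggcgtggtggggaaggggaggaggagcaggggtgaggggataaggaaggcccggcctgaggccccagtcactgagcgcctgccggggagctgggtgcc
Kcnip3, chr2:127522045-127522344, minus strand: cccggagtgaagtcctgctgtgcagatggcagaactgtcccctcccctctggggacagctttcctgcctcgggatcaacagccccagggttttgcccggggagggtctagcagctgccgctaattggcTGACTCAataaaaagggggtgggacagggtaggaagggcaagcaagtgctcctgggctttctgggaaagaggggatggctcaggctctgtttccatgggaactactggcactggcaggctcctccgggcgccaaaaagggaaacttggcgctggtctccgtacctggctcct
Kcnj10, chr1:172340960-172341259, plus strand: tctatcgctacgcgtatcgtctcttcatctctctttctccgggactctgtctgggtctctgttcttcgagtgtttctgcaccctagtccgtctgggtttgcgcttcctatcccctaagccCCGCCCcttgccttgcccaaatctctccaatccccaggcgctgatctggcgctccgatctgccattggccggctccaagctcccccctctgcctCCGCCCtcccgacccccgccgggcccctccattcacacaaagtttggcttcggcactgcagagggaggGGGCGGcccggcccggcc
Kcnk2, chr1:189344143-189344442, minus strand: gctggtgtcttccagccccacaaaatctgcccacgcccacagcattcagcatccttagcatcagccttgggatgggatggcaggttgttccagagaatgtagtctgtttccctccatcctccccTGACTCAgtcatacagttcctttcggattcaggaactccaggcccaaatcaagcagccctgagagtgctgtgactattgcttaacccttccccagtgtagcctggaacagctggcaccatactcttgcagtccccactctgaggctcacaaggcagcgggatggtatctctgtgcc
Each of the 4 genes had a GC box in at least 1 window, as did 20 of the 26 Kcn genes with a matched window. The single windows of Kcnj10 and Kcne1l hold 3 and 1. Of the 3 windows of Kcnip3, those not printed hold 2 and 1, and of the 4 windows of Kcnk2, 1 that is not printed holds 1. The printed windows of Kcnip3 and Kcnk2 hold 1 AP-1 match each, and no other window of these 4 genes holds one. RefSeq promoter windows were matched for 26 of the 31 genes, 41 windows in all. An AP-1 match stood in 3 of these (7.32%), a share close to the 7.81% of all 32851 windows. A GC box stood in 21 (51.2%), against 35.7% of all windows. The cyclic AMP response element TGACGTCA, searched on both strands and not overlapping the others, stood in none of the 41 and in 1.79% of all windows. A match is a run of letters in a window and not a measured binding site.

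The 7 auxiliary subunits of voltage-gated channels held 3 of the 6 genes that were higher in either comparison. Of these 7 genes, ECS had 3 higher and fluoxetine 2, with no gene lower in either comparison. Of all genes, 5.34% were higher and 4.18% lower with ECS, and 5.82% and 5.13% with fluoxetine. Counts this small cannot be read against these shares. Among the higher genes, Kcne1l passed the filter through its treated pools, with a mean deposited control signal of 38.0. Kcnip1 was under 1.5-fold when ECS was set against the vehicle pool (0.45). Kcne1l (also named Kcne5) encodes a small single-pass subunit that is known in human cells to inhibit KCNQ channels. Its signal was 129 in the ECS pool and 40.7 in the sham pool, and 151 in the fluoxetine pool and 35.3 in the vehicle pool. Both treated pools thus stood well above both control pools, which lay below 50 and differed from each other by a log2 ratio of 0.21. The log2 ratio of Kcne1l was 1.66 for ECS and 2.10 for fluoxetine (control spread 0.33), the largest of the 31 genes in both comparisons. With signals below 50 taken as 50, they were 1.37 and 1.59.

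The Kcnip genes encode calcium-binding proteins that attach to Kcnd pores, bring them to the surface and slow their inactivation, and Kcnip3 is also known as the transcriptional repressor DREAM and as calsenilin. Kcnip3 had a signal of 166 in the ECS pool and 72.8 in the sham pool, and 199.6 in the fluoxetine pool and 102 in the vehicle pool. These signals give log2 ratios of 1.19 for ECS and 0.97 for fluoxetine, where the control spread was 0.25. The sham pool was below the vehicle pool by a log2 ratio of -0.48, so that the ratio of ECS to vehicle was 0.71 and that of fluoxetine to sham 1.45. A dimmer probe set of Kcnip3 had 140 in the ECS pool and 21.6 in the sham pool, and 174 in the fluoxetine pool and 82.2 in the vehicle pool, with log2 ratios of 2.70 and 1.08. Its direction was the same, but the size with ECS rests on a sham signal below 50.

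Kcnip1, which is found in inhibitory interneurons among other cells, had 158 in the ECS pool and 96.6 in the sham pool, and 128 in the fluoxetine pool and 116 in the vehicle pool. The log2 ratio was 0.71 for ECS and 0.15 for fluoxetine (control spread 0.29), and a second probe set had 1.06 and 0.42. With ECS set against the vehicle pool in place of the sham pool the ratio was 0.45, under 1.5-fold. The summed signal of 6 interneuron markers, of which 1 was higher with ECS and 2 with fluoxetine, was 7228 in the ECS pool and 6204 in the sham pool, and 6732 in the fluoxetine pool and 5859 in the vehicle pool, none of the 6 being at 0. Their part in the Kcnip1 result was not tested. The other family members went the other way or stayed near 0. Kcnip2 had -0.38 for ECS and -0.42 for fluoxetine on the log2 scale, beyond its control spread of 0.29 but under 1.5-fold, and Kcnip4, the brightest of the 4, had -0.25 and -0.04. The family therefore did not move as one.

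The Kcnab genes encode cytoplasmic beta subunits of the Kcna pores. Kcnab2 had 1493 in the ECS pool and 1694 in the sham pool, and 1231 in the fluoxetine pool and 1738 in the vehicle pool. The treated pools were lower in both comparisons, by -0.18 and -0.50 on the log2 scale (control spread 0.14), and neither reached 1.5-fold. A dimmer probe set had -0.79 and -0.44, so that the size of the ECS difference depends on the probe set. Kcnab1 had -0.11 and -0.13, and its second probe set 0.07 and 0.12.

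**Figure D2:**
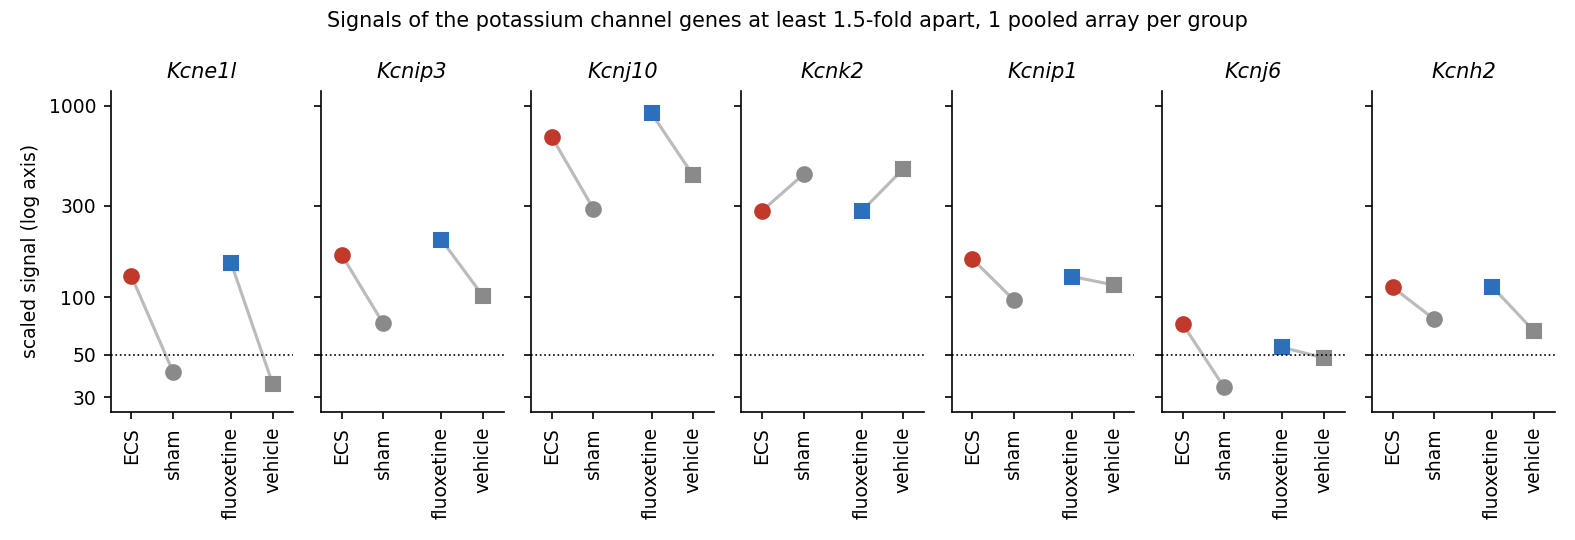
Scaled signals (vertical log axis) of the 7 potassium channel genes at least 1.5-fold apart in either comparison, 1 point per pooled array, ECS left of sham and fluoxetine left of vehicle. Lines join the arrays compared and the dotted line marks a signal of 50. Kcne1l, Kcnip3 and Kcnj10 slope down toward each control and Kcnk2 slopes up, while both control points of Kcne1l and of Kcnj6 lie below 50.

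The pores of voltage-gated channels moved about as much as genes at large. Their median absolute log2 ratio was 0.16 for ECS and 0.21 for fluoxetine, against 0.18 and 0.19 for all genes. Of 10 genes, none was called with ECS, where 5.34% of all genes were higher and 4.18% lower. With fluoxetine 1 was higher and none lower, against 5.82% and 5.13%. Counts this small cannot be read against these shares. The median log2 ratio of the class was -0.07 for ECS and -0.13 for fluoxetine, near the 0.01 and -0.01 of all genes. The 1 called gene was Kcnh2, which encodes the ether-a-go-go-related (ERG) channel that repolarizes the heart and steadies firing in neurons. Its signal was 112 in the ECS pool and 76.5 in the sham pool, and 113 in the fluoxetine pool and 66.5 in the vehicle pool. Both treated pools were above both controls, with a log2 ratio of 0.56 for ECS, just under 1.5-fold, and of 0.76 for fluoxetine (control spread 0.32). Fluoxetine set against the sham pool gave 0.56, under 1.5-fold. Of its relatives, Kcnh1 had -0.12 and -0.21 and Kcnh3 0.27 and 0.03.

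The Kcnd and Kcna pores had slightly lower scaled signals in the treated pools. Kcnd2 encodes the pore of the dendritic A-type current, and had 2015 in the ECS pool and 2434 in the sham pool, and 2270 in the fluoxetine pool and 2616 in the vehicle pool. The log2 ratio was -0.27 for ECS and -0.20 for fluoxetine (control spread 0.13), and all 3 of its probe sets were below 0 in both comparisons, between -0.53 and -0.27 for ECS and between -0.50 and -0.20 for fluoxetine. Kcna1, a pore of axons and their terminals, had 1529 in the ECS pool and 1644 in the sham pool, and 1304 in the fluoxetine pool and 1774 in the vehicle pool. For Kcna1 the log2 ratio was -0.11 for ECS and -0.44 for fluoxetine (control spread 0.14). Kcna4, an A-type pore of axons, had -0.16 and -0.11, the second being 0.02 on the deposited signals. None of these pores reached 1.5-fold.

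Kcnc pores allow fast spiking. Kcnc4 had -0.04 for ECS and 0.26 for fluoxetine on the log2 scale, and a second probe set had -0.73 and 0.08, while Kcnc1 had 0.01 and -0.15. Kcns2, a subunit that forms no channel alone but modifies other pores, had 171 in the ECS pool and 152 in the sham pool, and 228 in the fluoxetine pool and 183 in the vehicle pool, with log2 ratios of 0.17 and 0.32. Kcnq5, a pore of the M-current that restrains repeated firing, had 69.9 in the ECS pool and 78.2 in the sham pool, and 45.9 in the fluoxetine pool and 51.1 in the vehicle pool. Its ratios were -0.16 in both comparisons, smaller than the log2 ratio of 0.61 between its sham and vehicle pools.

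The inward rectifiers had 2 of 6 genes higher with ECS and 1 with fluoxetine, with none lower. The shares of all genes were 5.34% and 5.82%, against which counts this small cannot be read. Kcnj6, 1 of the 2, had a mean deposited control signal of 42.75, and its call was lost with signals below 50 taken as 50. Kcnj10 encodes the main inward rectifier of astrocytes, through which they buffer potassium. Its signal was 685 in the ECS pool and 289 in the sham pool, and 912 in the fluoxetine pool and 433 in the vehicle pool. Both treated pools were above both control pools, and the log2 ratio was 1.24 for ECS and 1.08 for fluoxetine (control spread 0.16). The sham pool was itself below the vehicle pool, by a log2 ratio of -0.58, so the ratio of ECS to vehicle was 0.66 and that of fluoxetine to sham 1.66. The summed signal of 6 astrocyte markers was 8611 in the ECS pool and 8029 in the sham pool, and 10106 in the fluoxetine pool and 8697 in the vehicle pool, with none of the 6 at 0. Of these markers 1 was higher with ECS and 2 with fluoxetine, namely Gfap, the intermediate filament of astrocytes, with log2 ratios of 2.35 and 2.30, and the water channel gene Aqp4, with 0.45 and 0.74. Slc1a2 had 0.54 and 0.41, Aldh1l1 0.12 and 0.20, Gja1 -0.09 and -0.21, and Slc1a3 -0.53 and -0.08. On the deposited signals Slc1a3 was lower with ECS, at -0.64. The part of astrocyte number or state in the Kcnj10 result was not tested.

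Kcnj3, Kcnj6 and Kcnj9 encode subunits of the G protein-gated rectifiers that open after transmitter receptors such as those for GABA and serotonin act. Kcnj6 had 72.5 in the ECS pool and 33.8 in the sham pool, and 54.6 in the fluoxetine pool and 48.2 in the vehicle pool. These give a log2 ratio of 1.10 for ECS and 0.18 for fluoxetine, where the control spread was 0.41. The ratio with ECS rests on the low sham signal, and with signals below 50 taken as 50 it was 0.54, under 1.5-fold. Its 4 further probe sets were below the filter and did not share 1 direction with ECS. Kcnj9, the brightest of the 3, had 448 in the ECS pool and 405 in the sham pool, and 422 in the fluoxetine pool and 398 in the vehicle pool, with ratios of 0.15 and 0.08. Kcnj3 had 0.23 and 0.09. Kcnj4, a strong inward rectifier of forebrain neurons, had log2 ratios of -0.21 and -0.44, and the ATP-sensitive pore Kcnj8, a gene of pericytes and smooth muscle, had 0.44 and -0.25 (control spread 0.41).

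The tandem-pore class had 2 measured genes, which differed in opposite directions. Kcnk2 encodes TREK, a leak channel opened by stretch, fatty acids and volatile anesthetics. Its signal was 283 in the ECS pool and 438 in the sham pool, and 281 in the fluoxetine pool and 468 in the vehicle pool. The treated pools lay close to each other, as did the control pools. Both treated pools were below both control pools, as in 25.8% of the Kcn genes and 23.1% of all genes. The log2 ratio of Kcnk2 was -0.63 for ECS and -0.73 for fluoxetine, where the control spread was 0.18 and the log2 ratio of sham to vehicle -0.09. Kcnk1, which encodes the weakly conducting leak channel TWIK, was the brightest of the 31 genes, at 3343 in the ECS pool and 2340 in the sham pool, and 3660 in the fluoxetine pool and 2611 in the vehicle pool. Its log2 ratios of 0.51 and 0.49 were under 1.5-fold but larger than its control spread of 0.13. A dimmer probe set had 1028 in the ECS pool and 637 in the sham pool, and 1289 in the fluoxetine pool and 795 in the vehicle pool, with ratios of 0.69 and 0.70, past 1.5-fold. On the deposited signals the brightest probe set had 0.41 for ECS and 0.61 for fluoxetine, the second past 1.5-fold. Its scaled ratio of fluoxetine to sham was 0.65, past 1.5-fold too. Whether Kcnk1 counts as higher therefore depends on the probe set, the scaling and the control array, while its direction does not.

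None of the 6 genes of the Slo and small-conductance classes was called. Of all genes, 5.34% were higher and 4.18% lower with ECS, and 5.82% and 5.13% with fluoxetine, so with 6 genes the lack of a call cannot be read. Kcnma1, the pore of the large-conductance calcium-activated channel, had 506 in the ECS pool and 407 in the sham pool, and 558 in the fluoxetine pool and 542 in the vehicle pool. Its log2 ratios were 0.32 and 0.04, and the gap between its control pools, -0.41, was larger than either. Its auxiliary subunits Kcnmb2 and Kcnmb4, of which Kcnmb4 is a neuronal form, were under 1.5-fold too, Kcnmb2 with 0.42 and -0.11 and Kcnmb4 with 0.03 and -0.21. The small-conductance channels of the afterhyperpolarization were likewise near 0, with -0.12 and 0.20 for Kcnn1 and 0.11 and -0.01 for Kcnn2. Kcnu1, a Slo channel known from mouse sperm, had 168 in the ECS pool and 121 in the sham pool, and 126 in the fluoxetine pool and 132 in the vehicle pool, with ratios of 0.47 and -0.07. Signs between the treatments cannot be compared in this class, since most of these ratios are close to 0: they were opposite in 5 of the 6 genes on the scaled signals and in 1 on the deposited signals.

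**Figure D3:**
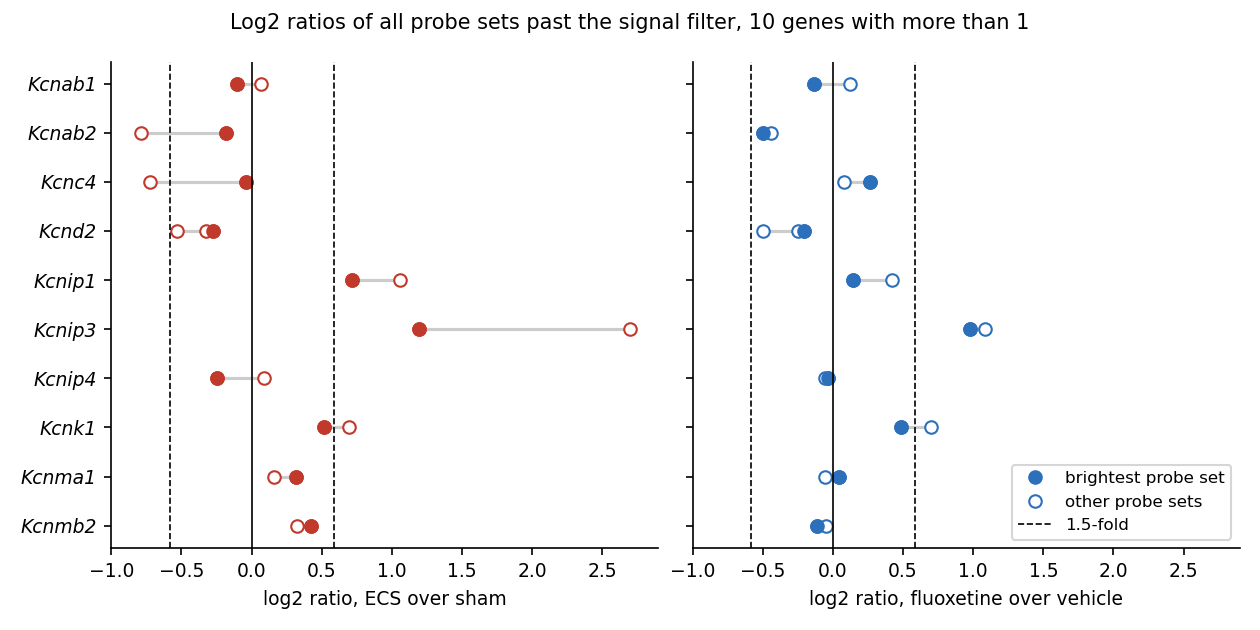
Log2 ratios of scaled signals for every probe set past the filter of the 10 potassium channel genes that have more than 1, ECS over sham in the left panel and fluoxetine over vehicle in the right panel, 1 row per gene. Filled points are the brightest probe set of the gene, open points the others, and dashed lines mark 1.5-fold. The probe sets of Kcnip3 lie right of the line in both panels, and those of Kcnab1 lie on both sides of 0, which with ECS holds on the scaled signals only.

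Of the 10 Kcn genes with more than 1 probe set past the filter, 8 had ratios of 1 sign in all of them with ECS and 8 with fluoxetine. The exceptions were Kcnab1 and Kcnip4 with ECS and Kcnab1 and Kcnma1 with fluoxetine, all with ratios under 1.5-fold. On the deposited signals these counts were 10 and 9. Probe sets of a gene can read different transcript ends, which was not examined.

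Across the 31 genes the 2 log2 ratios of a gene correlated at 0.73 (Spearman), where all 7935 genes gave 0.49. The 2 comparisons share no array. Of the 31 genes, 23 had ratios of the same sign (74.2%), against 66.8% of all genes. On the deposited signals 26 did (83.9%), against 58.0% of all genes. Genes are not replicates, and the coefficient describes these 4 arrays alone. The median log2 ratio of the Kcn genes was 0.11 for ECS and -0.04 for fluoxetine, where all genes had 0.01 and -0.01, and it was -0.09 for sham over vehicle against 0.01. On the deposited signals the medians were 0.00 and 0.09, so that no overall direction can be read for the family.

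**Figure D4:**
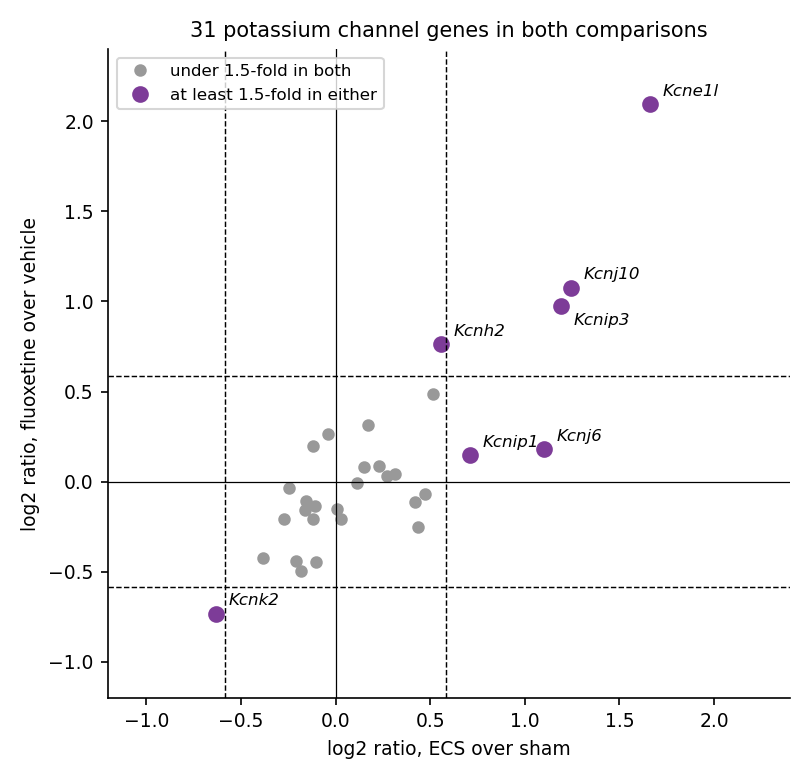
Log2 ratio with ECS (horizontal axis) against that with fluoxetine (vertical axis) for the 31 potassium channel genes, scaled signals, 1 pooled array per group. Purple points are the 7 genes at least 1.5-fold in either comparison and dashed lines mark 1.5-fold. Kcne1l stands farthest from the origin at 1.66 and 2.10, and Kcnk2 is the one gene past 1.5-fold toward lower levels on both axes.

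Genes that work with the channels were read from a list of 21 partners, of which 16 had a probe set and 13 passed the filter. None was higher, where 5.34% of all genes were with ECS and 5.82% with fluoxetine. With ECS 1 was lower and with fluoxetine 2, where 4.18% and 5.13% of all genes were. Abcc8 encodes the sulfonylurea receptor, which joins Kcnj11 in the ATP-sensitive channel of neurons. Its signal was 116 in the ECS pool and 248 in the sham pool, and 69.4 in the fluoxetine pool and 217 in the vehicle pool. The treated pools were far below both controls, by -1.10 for ECS and -1.64 for fluoxetine on the log2 scale (control spread 0.24). The pore gene Kcnj11 was below the filter, with a signal of 29.0 in the ECS pool and 11.6 in the sham pool, and 5.41 in the fluoxetine pool and 16.2 in the vehicle pool, too low for a ratio to be read. Lgi1, a secreted protein that acts on axonal Kcna channels and synapses, had 1306 in the ECS pool and 1488 in the sham pool, and 965 in the fluoxetine pool and 1479 in the vehicle pool. Its log2 ratios were -0.19 and -0.62, the second being -0.49 on the deposited signals and so under 1.5-fold. Dpp6, another partner of the Kcnd pores, had 0.23 and 0.05.

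Potassium is also moved by the sodium pump and by chloride cotransporters. Of 20 such genes, 15 had a probe set and 11 passed the filter, of which 2 were higher and 1 lower with ECS, 2 were higher and 1 lower with fluoxetine, and 1 was higher with both. Of all genes, 5.34% were higher and 4.18% lower with ECS, and 5.82% higher and 5.13% lower with fluoxetine. The gene higher with both was Fxyd5, a regulatory subunit of the pump. Fxyd5 had 113 in the ECS pool and 62.4 in the sham pool, and 83.3 in the fluoxetine pool and 38.7 in the vehicle pool. Its log2 ratios were 0.86 and 1.11, but its control pools themselves differed by 0.69. Atp1b3, a beta subunit of the pump, had 1017 in the ECS pool and 662 in the sham pool, and 1006 in the fluoxetine pool and 690 in the vehicle pool. The log2 ratio was 0.62 for ECS and 0.54 for fluoxetine (control spread 0.14), with both treated pools above both controls. On the deposited signals its ratio with ECS was 0.51, under 1.5-fold, and that with fluoxetine was 0.67. Fxyd1, another regulator, had log2 ratios of 0.24 and 1.00, Fxyd6 -0.17 and -0.64, and Fxyd7 -0.81 and -0.28, the ratio of Fxyd6 with fluoxetine being -0.52 on the deposited signals. On those signals the counts were 1 higher and 1 lower with ECS, and 3 higher and 0 lower with fluoxetine. The neuronal chloride extruder Slc12a5 had -0.21 and -0.15.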

How the data were processed

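RNA of the dentate gyrus was pooled by group and hybridized to the Affymetrix mouse genome 430A 2.0 array, 1 array per group. The authors computed signal intensities with MAS5 (microarray suite 5.0), and the deposited intensities are on a linear scale that differs between arrays. The table holds 22690 probe sets. After leaving out 64 controls and mean signals below 50, 13422 remained. Signals were multiplied by 1.29 (ECS), 1.19 (sham), 0.773 (fluoxetine) and 0.842 (vehicle) to reach a common median log2 signal, and log2 ratios were taken in pandas 2.3.3 and numpy 2.4.6, with scipy 1.17.1 for ranks and matplotlib 3.10.9 for figures, under Python 3.11.15.

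Symbols came from the platform annotation, and all 90 Kcn probe sets had the same symbol in RefSeq for their gene identifiers. No gene was read from probe sets annotated to several genes (691) or to no gene (1555). Promoters are those of RefSeq on GRCm38.p6.

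Genes given with all signals are those at least 1.5-fold in either comparison and, in other subfamilies, the member with the largest mean absolute ratio. Kcnc4, Kcnmb2 and Kcnn1 were such members but are given by ratios alone. Brighter or completing members were named after their values were seen, Kcnj9 and Kcnk1 with all signals. Genes of the partner and transport lists were named when at least 1.5-fold, and Dpp6, Slc12a5 and Kcnj11 were named after their values were seen. The members and lists were chosen with earlier results of these data known. No test was run, since each group has 1 array, and the number of arrays limits the precision. The steps were tested on simulated arrays. Alternatives were the deposited signals, quantile normalization, a floor of 50, a pseudocount of 16, at least 1 array at 50, a mean of 200, the mean over probe sets, exchanged control arrays and 2-fold, and a filter on the mean control signal, added after the data were seen. Detection calls and single probes were not analysed here.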

Additional observations from a re-analysis of the deposited data

How the results depend on the processing

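The counts of Kcn genes kept within 1.5 times their main values on the deposited signals, under quantile normalization, with a floor of 50, with a pseudocount of 16, with at least 1 array at 50 and when probe sets were averaged. A filter at a mean of 200 left 16 genes, of which 1 was higher with ECS, 1 higher with fluoxetine and 1 higher in both comparisons, and the median log2 ratios were -0.0954 with ECS and -0.158 with fluoxetine. At 2-fold, 4 were higher and 0 lower with ECS, 2 were higher and 0 lower with fluoxetine, and 2 were higher and 0 lower with both. With the control arrays exchanged, 2 were lower with fluoxetine, Kcnq5 being added, while 6 were higher with fluoxetine (Kcnj6 at 0.69, Kcnk1 at 0.65 and Kcns2 at 0.59 added, Kcnh2 lost) and 4 higher with both. Shares of all genes at a mean of 200, at 2-fold and with the control arrays exchanged are not given here. The counts under those settings therefore cannot be set against a background. With the filter on the mean control signal, chosen after seeing the data, 3 were higher with ECS. On the deposited signals the medians were 0.0034 with ECS and 0.0898 with fluoxetine, so that the sign with fluoxetine follows the scaling, and with the control arrays exchanged that median was 0.0564. Of the 11 calls of single genes, 11 stayed past 1.5-fold on the deposited signals, under quantile normalization, with the pseudocount and with the mean over probe sets. With the floor of 50 the call of Kcnj6 with ECS was lost (0.54), and with the control arrays exchanged those of Kcnip1 with ECS (0.45) and Kcnh2 with fluoxetine (0.56). No direction was reversed. No paired analysis was possible because each group has 1 array. Signals below 50, as in the control pools of Kcne1l and Kcnj6, limit the size of those ratios.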

Other observations

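Below the signal filter, 31 Kcn genes were left whose probe sets averaged under 50, among them the Kcne genes other than Kcne1l and most Kcna genes. The nearest to the filter was Kcnj12, a strong inward rectifier, with 39.9 in the ECS pool and 25.4 in the sham pool, and 74.8 in the fluoxetine pool and 35.2 in the vehicle pool. Its log2 ratios were 0.65 and 1.09, so that it would have counted as higher with both treatments under a filter of at least 1 array at 50. It would pass that filter through its fluoxetine pool alone, with a deposited signal of 96.8. The call with fluoxetine would therefore be built into the choice, and the ratio with ECS rests on signals below 50 in both pools. Kcnk13, a halothane-inhibited tandem-pore channel known from microglia, had 46.7 in the ECS pool and 42.0 in the sham pool, and 39.5 in the fluoxetine pool and 33.4 in the vehicle pool, with ratios of 0.15 and 0.24. These 2 genes were named after their values were seen.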
